A study of Mus musculus with 18 samples.

Results

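The interferon receptors, their signaling proteins and the genes they induce were followed through nuclei of 4 cell classes in the mouse brain. The 33 genes were taken by symbol from the 30905 genes of the deposited count tables and fall into 4 receptor, 11 signaling and 18 response genes. Type I interferons bind a receptor made of Ifnar1 and Ifnar2, and interferon gamma binds one made of Ifngr1 and Ifngr2. Both receptors signal through Janus kinases and STAT transcription factors, and interferon regulatory factors act before and after the receptor to switch on genes whose products restrict viruses. In the brain, microglia and the endothelium of the blood vessels are known to answer interferon, and a basal tone of type I interferon in immune cells is known to depend on the gut microbiota.

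The nuclei came from frozen hippocampus (Hip) and prefrontal cortex (PFC) of 9 Kun Ming mice, all 8 weeks old. 3 mice were germ-free (GF), 3 were specific pathogen-free (SPF) and 3 were colonized germ-free (CGF), which means germ-free mice that lived with SPF mice from their juvenile weeks on. GF and CGF mice stayed in gnotobiotic isolators, while SPF mice were reared elsewhere, so rearing and microbiota differed together between SPF and GF mice. Each mouse gave 1 library per region, 18 in all. Between groups the mouse is the replicate, with 3 mice in each group. Those p-values measure the spread between mice within groups, estimated over the 9 libraries of a region. Between classes the p-values measure the spread left once each library has its own term. The main test of the difference between regions took both sums of a mouse as independent.

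Raw counts of unique molecular identifiers (UMIs) were summed per library over microglia, endothelium, other glia (astrocytes, oligodendrocytes and their precursors) and neurons, each gated on its own marker genes. The gates held 1611 microglial, 604 endothelial, 14239 other glial and 50191 neuronal nuclei in Hip and 1620, 971, 9931 and 50544 in PFC. A library held 24 to 120 endothelial nuclei in Hip, the lowest number in GF mouse 5. Libraries of GF mice in PFC held 59126586 to 71463928 UMIs, those of SPF and CGF mice in PFC 20336250 to 26949210, and all Hip libraries 49067853 to 63217083. In PFC, depth and the GF group cannot be told apart. In Hip the groups also differed per nucleus, since neurons of GF libraries had a median of 5750 to 6840 UMIs against 8537.5 to 9424 in SPF and 7553 to 10195 in CGF libraries. Mitochondrial genes took 0.645% to 1.10% of UMIs in GF libraries of Hip and at most 0.471% in the others, whereas in PFC they took 0.359% to 0.594% in GF and 1.28% to 3.22% in the others. Sums were also thinned to an equal depth per nucleus, which leaves the expected share of each gene unchanged. Otherwise the part of these measures in the group differences was not tested. Any 2 libraries shared 6 to 29 cell barcodes (median 16). All 12 microglial and all 10 endothelial markers had UMIs in the microglia and the endothelium of every library, and no other marker list summed higher there. Neuronal markers, which sum to 117 to 121 per 10000 UMIs in Hip neurons of CGF mice, still summed to 41.5 to 49.6 in Hip microglia and 27.5 to 43.0 in Hip endothelium of the same mice, so neuronal RNA was present in every class. Levels are given as CPM, the UMIs of a gene over those of the class in a library, scaled to 1000000 and with edgeR's TMM factors. For CPM these factors came from the libraries of a single class and region. The class tests used factors from the sums of all 4 classes together. Levels of different classes can thus differ in size or direction from the log2 differences of the class tests. The 3 values of a group are always listed by ascending mouse number.

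The start regions of the members are shown first because many response genes are switched on through the interferon-stimulated response element (ISRE). A promoter is here the 300 bases from 250 before to 50 after an annotated start (RefSeq, GRCm38.p6), and 29 of the 33 members had at least 1. Parp14, Ifi27, Usp18 and Mx1 had none. The ISRE was searched as GAAANNGAAA on both strands, on which its other strand reads TTTCNNTTTC, and copies were allowed to overlap. It occurred in 1131 of 32851 mouse promoters (3.44%) and in 10 of the 29 members, of which 8 were response genes, 2 were signaling genes and 0 were receptors. The gamma-activated site, searched as TTCNNNGAA, occurred in 8.30% of all promoters and in 8 of the 29 members, 4 of them response genes. The members had 34 promoters, of which 10 held the ISRE and 8 this site. In Adar the site lay only in a promoter 15696 bases from the start of its gene model. A match is only a match of letters in this window.

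The first ISRE match of each of the 10 members is shown in capitals with the bases around it and any copy that overlaps it, on the gene's strand. Ifit1 and Ifit3 hold a further match outside these windows. They are printed because 8 of the 14 response genes with a promoter hold this element, while Oasl2, Trim25, Xaf1, Rnf213, Ifit2 and Adar do not.
Ifit1: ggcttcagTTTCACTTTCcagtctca
Ifit3: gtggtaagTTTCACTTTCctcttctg
Isg15: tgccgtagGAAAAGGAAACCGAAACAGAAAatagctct
Bst2: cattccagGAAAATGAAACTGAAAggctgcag
Rsad2: ggtccaacTTTCATTTTCagaaaaca
Stat2: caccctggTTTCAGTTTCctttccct
Irf2: ggggaagtGAAAATGAAAttgacttt
Ddx58: tgaggcagTTTCGATTTCctatggcc
Eif2ak2: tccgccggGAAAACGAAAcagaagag
Ifih1: agagaatcGAAACAGAAAccgatctg
The first base of the first match lay at -104 from the start in Ifit1, -156 in Ifit3, -78 in Isg15, -130 in Bst2 and -120 in Rsad2. The RNA sensors Ddx58 and Ifih1 and the kinase Eif2ak2 carried theirs after the start, at 2, 32 and 18. In Isg15 3 overlapping copies form a single run.

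Whole promoters are printed for the 4 members with the smallest adjusted p among tests in which a member was higher in endothelium or microglia, Trim25 and Ifit1 (highest in endothelium) and Irf5 and Ifngr1 (highest in microglia). Capitals mark ISRE matches, which only Ifit1 had among these 4, at -104 and -85.
Trim25, chr11:88999153-88999452, plus strand: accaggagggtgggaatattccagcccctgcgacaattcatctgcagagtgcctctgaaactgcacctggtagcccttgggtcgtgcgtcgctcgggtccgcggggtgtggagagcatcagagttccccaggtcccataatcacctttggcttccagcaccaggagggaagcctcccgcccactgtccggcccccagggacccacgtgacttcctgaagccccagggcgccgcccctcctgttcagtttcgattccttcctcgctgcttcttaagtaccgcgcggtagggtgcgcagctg
Ifit1, chr19:34640639-34640938, plus strand: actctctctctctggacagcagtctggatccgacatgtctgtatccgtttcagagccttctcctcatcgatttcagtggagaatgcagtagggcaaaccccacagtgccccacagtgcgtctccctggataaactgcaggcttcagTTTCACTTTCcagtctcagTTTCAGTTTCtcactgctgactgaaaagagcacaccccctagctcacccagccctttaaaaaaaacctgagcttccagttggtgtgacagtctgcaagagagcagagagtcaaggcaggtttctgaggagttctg
Irf5, chr6:29526375-29526674, plus strand: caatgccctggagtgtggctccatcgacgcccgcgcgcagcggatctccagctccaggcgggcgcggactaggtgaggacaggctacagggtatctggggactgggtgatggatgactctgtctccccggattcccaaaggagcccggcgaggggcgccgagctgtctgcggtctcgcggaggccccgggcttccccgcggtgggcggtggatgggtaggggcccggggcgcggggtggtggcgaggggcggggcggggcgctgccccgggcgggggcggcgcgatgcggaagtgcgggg
Ifngr1, chr10:19591699-19591998, plus strand: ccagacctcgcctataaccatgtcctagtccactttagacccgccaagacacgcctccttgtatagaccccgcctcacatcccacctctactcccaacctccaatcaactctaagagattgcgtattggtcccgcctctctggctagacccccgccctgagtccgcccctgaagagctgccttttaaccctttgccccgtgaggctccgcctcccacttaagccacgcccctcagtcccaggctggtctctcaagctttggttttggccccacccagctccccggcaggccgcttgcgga

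Many members were too low to compare between groups. A member was called too low in a class and region where its sums did not pass edgeR's filter on low counts (filterByExpr) for the comparison of the 3 groups. Of the 264 combinations of member, class and region, 158 passed. In microglia 17 of 33 members were too low in Hip and 25 in PFC, in endothelium 13 and 19, in other glia 9 and 14, and in neurons, by far the class with the most UMIs, 3 and 6. In microglia 13 of 18 response genes were too low in Hip and all 18 in PFC, against 0 and 2 of 4 receptors and 4 and 5 of 11 signaling genes. In endothelium the tiers were closer, with 7 and 11 of 18 response genes, 1 and 2 of 4 receptors and 5 and 6 of 11 signaling genes too low. Irf7, which amplifies the type I response, and Usp18, which removes Isg15 from proteins and dampens the receptor, passed nowhere. Ifit3, Isg15 and Mx1 passed only in neurons and Rsad2 only in Hip other glia, whereas Jak1, Jak2, Stat3 and Irf2 passed in every class and region. Ifit3 also shares sequence with a close copy, Ifit3b, so its counts are uncertain.

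The numbers behind these gaps are small. Isg15, the ubiquitin-like modifier, had 39 UMIs over all 9 endothelial sums in Hip and 41 in PFC. Irf7 had 25 and 64, and Rsad2 (viperin) had 27 and 16. Mx1, a GTPase that blocks influenza virus, had 1 UMI in the endothelium of either region. In microglia Irf7 had 0 UMIs in Hip and 3 in PFC, and Ifit1 3 and 0. Group differences of these genes were not detectable at this depth, and intervals on such counts would cover counting error only.

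Each class was then compared with the mean of the other 3 classes within a region, with the library as a block. None of the 33 members was used in a gate. Of 29 members tested in Hip, 22 were higher in endothelium and 2 lower, and of 25 tested in PFC, 18 were higher and 2 lower. Over all genes tested, 22.9% were higher in endothelium in Hip and 22.7% in PFC. The median log2 difference of the tested members was 1.86 in Hip and 1.85 in PFC, against -0.18 and -0.15 over all genes tested. Some members passed the filter only through the class in which they are high, so this count is not support by itself. With no filter all 33 members could be tested, and 23 were higher in endothelium in Hip and 24 in PFC, against 11.8% and 11.2% of all genes with a UMI.

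With no filter 16 of 18 response genes were higher in endothelium in each region and 0 were lower, against 2 and 2 of 4 receptors and 5 and 6 of 11 signaling genes higher in Hip and PFC, a difference between tiers that was not tested. With the filter the counts were 14 of 15 in Hip and 9 of 10 in PFC, with median log2 differences of 3.45 and 2.84.

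Trim25, the ubiquitin ligase that works with the RNA sensor Ddx58, had the smallest adjusted p in endothelium. In Hip it lay at 61.7 to 171 CPM (median 108) in the 9 endothelial sums, 9.38 to 28.4 CPM (median 20.8) in microglia, 2.71 to 6.45 CPM (median 4.98) in other glia and 0.313 to 0.782 CPM (median 0.617) in neurons. In PFC the endothelial range was 93.4 to 289 CPM (median 161) and the microglial 0 to 61.7 CPM (median 23.3). The endothelial values did not overlap those of any other class in either region. The log2 difference from the other classes was 4.65 ± 0.18 (SE, adjusted p = 5.85e-25) in Hip and 4.79 ± 0.16 (SE, adjusted p = 2.89e-26) in PFC. They rest on 184 and 270 endothelial UMIs.

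Oasl2, a relative of the oligoadenylate synthetases that sense double-stranded RNA, had the largest mean difference over both regions among members that passed the filter and the test in both. Its endothelial sums lay at 18.9 to 118 CPM (median 56.1) in Hip and 23.0 to 165 CPM (median 46.6) in PFC. Its microglial sums lay at 0 to 12.7 CPM (median 3.13) and 0 to 7.85 CPM (median 0), and its neuronal sums at 0.333 to 0.676 CPM (median 0.391) and 0.122 to 0.513 CPM (median 0.244). All endothelial sums were above all sums of the other classes. The log2 difference was 5.31 ± 0.30 (SE, adjusted p = 4.71e-19) and 5.67 ± 0.32 (SE, adjusted p = 1.5e-18).

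Ifih1 (MDA5), a sensor of long double-stranded RNA, followed Oasl2 and Trim25 in the size of its endothelial difference among members called in both regions. It lay at 16.5 to 108 CPM (median 40.2) in Hip endothelium against 10.7 to 30.6 CPM (median 17.2) in Hip microglia, and at 25.5 to 141 CPM (median 55.4) against 0 to 44.4 CPM (median 16.1) in PFC. Here the ranges of both classes overlapped. Against the mean of the other 3 classes it was higher by 3.75 ± 0.31 (log2, SE) in Hip and 3.43 ± 0.23 in PFC, and it was also higher in microglia, by 1.77 ± 0.32 and 0.99 ± 0.31, the latter not past the threshold without GF mouse 5 (adjusted p = 0.052).

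Several low response genes were also higher in endothelium. Ifit1, which binds foreign RNA caps, lay at 27.5 to 123 CPM (median 59.5) in Hip endothelium and 0 to 4.31 CPM (median 0) in Hip microglia, and its log2 difference for endothelium was 5.85 ± 0.29 (SE). Isg15 was higher in Hip endothelium by 5.43 ± 0.49, Usp18 by 4.62 ± 0.36 and Bst2 (tetherin) by 4.74 ± 0.42 on the same scale. Of the values behind Isg15 and Bst2 a single library was far above the rest, GF mouse 5 with 226 CPM for each, from a sum of only 24 nuclei. Usp18 was also higher in Hip microglia, by 2.21 ± 0.40. Without GF mouse 5 Isg15 and Bst2 stayed past the threshold in Hip. In PFC these 4 genes were too low for the filter and Irf7 was not, with 5.34 ± 0.38 (SE, adjusted p = 2.18e-15). Each of these members may have passed the filter only through the endothelium, so the direction of its difference is not support by itself.

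Other response genes were shared by endothelium and microglia. Parp14, a mono-ADP-ribosyltransferase, lay at 32.5 to 81.6 CPM (median 44.6) in endothelium and 24.9 to 63.3 CPM (median 53.3) in microglia of Hip, and no library of other glia or neurons came near. It was higher by 3.41 ± 0.24 (log2, SE) in Hip endothelium and 3.16 ± 0.19 in Hip microglia, and by 3.52 ± 0.27 and 2.94 ± 0.28 in PFC. Rnf213 (a large ubiquitin ligase), Ddx58 (RIG-I) and Eif2ak2 (PKR), which are all antiviral sensors or effectors, were higher in both classes and regions, by 0.59 to 2.24 on the log2 scale. The difference of Ddx58 in Hip microglia lost its call with no filter (adjusted p = 0.11) and without CGF mouse 17, 18 or 19 or SPF mouse 30 (adjusted p 0.056 to 0.14), and in GF libraries alone it turned to -0.32. Over all tiers 9 of the 24 members tested in both regions were higher in endothelium and in microglia in both. With no filter it was 7 of 33, when Ddx58 and Irf2 dropped out. The share of all genes higher in both classes and both regions was not counted. Xaf1 and Ifi27, both linked to cell death, were higher in endothelium in both regions and did not pass the test in microglia.

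**Figure D1:**
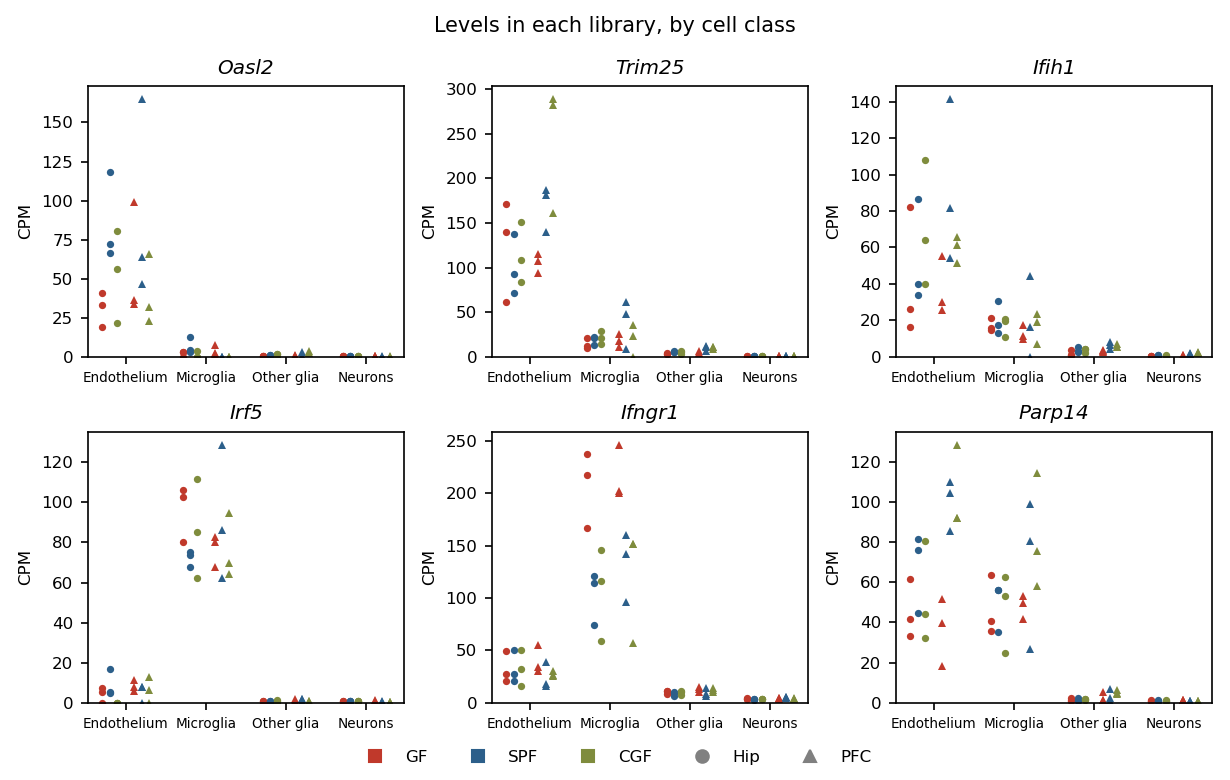
Level (CPM, linear axis from 0) of 6 members in each library, by cell class, with colors for GF, SPF and CGF mice, circles for Hip and triangles for PFC. Oasl2, Trim25 and Ifih1 sit highest in endothelium, Irf5 and Ifngr1 in microglia, and Parp14 in both, while neurons and other glia lie near 0 in each panel.

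The exceptions among the response genes were Adar and Mx1. Adar, which edits adenosine to inosine in double-stranded RNA, was the only member higher in neurons in both regions. Its neuronal sums lay at 80.1 to 115 CPM (median 109.8) in Hip and 99.9 to 134 CPM (median 114) in PFC, and its microglial sums at 33.2 to 109.5 CPM (median 53.3) and 37.9 to 96.5 CPM (median 50.7), so the ranges of both classes overlapped in part. Endothelium came closest to neurons. Summed over libraries, Adar lay at 81.6 CPM in endothelium and 101 CPM in neurons of Hip, and at 71.2 and 112 CPM in PFC. The log2 difference for neurons was 1.26 ± 0.07 (SE, adjusted p = 1.36e-19) and 1.22 ± 0.09 (SE, adjusted p = 2.5e-15). Overlap with the gene Chrnb2 on the other strand covers 18.9% of Adar. Mx1 was tested only without a filter, where its difference for neurons was 2.00 ± 0.33 (SE, adjusted p = 2.79e-07) in Hip and 2.51 ± 0.42 (SE, adjusted p = 8.17e-07) in PFC. Summed over libraries, Mx1 lay at 4.14 CPM in neurons and 5.12 CPM in microglia of Hip, so neurons were not the highest class there. In PFC the values were 5.84 and 2.88 CPM. The PFC neuronal level came almost all from GF mice, as given below.

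In the signaling tier, Irf5 had the largest difference for microglia. This factor drives inflammatory cytokines downstream of Toll-like receptors. Its microglial sums lay at 62.4 to 111 CPM (median 80.3) in Hip and 62.2 to 129 CPM (median 80.5) in PFC, and its endothelial sums at 0 to 16.9 CPM (median 4.96) and 0 to 12.8 CPM (median 7.76). The microglial values were above every value of the other classes. The log2 difference for microglia was 5.60 ± 0.21 (SE, adjusted p = 5.97e-25) and 5.25 ± 0.24 (SE, adjusted p = 2.36e-21), from 245 and 160 UMIs.

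Over all tiers 15 of 29 members were higher and 4 lower in microglia in Hip, and 16 of 25 were higher and 3 lower in PFC, against 25.6% and 17.9% of all genes tested that were higher and 26.5% and 29.3% that were lower. The PFC count of 16 was 10 in SPF libraries alone and 10 in CGF libraries alone. The share of all genes was not counted in these smaller fits. With no filter the counts higher were 14 and 16 of 33, against 12.0% and 9.73%. The kinases Jak1 and Tyk2, which bind the receptor chains, were higher in microglia in both regions (Jak1 0.73 ± 0.09 and 0.85 ± 0.09, Tyk2 0.89 ± 0.15 and 1.05 ± 0.16, log2 with SE). An antisense gene covers 89.5% of Tyk2, and whether the counting used strand is not given in the sources used here. Jak2, which serves the interferon gamma receptor, was lower there (-0.48 ± 0.13 and -0.43 ± 0.17), but in PFC not past the threshold without GF mouse 5 or 7, SPF mouse 30 or CGF mouse 19 (adjusted p 0.071 to 0.11). Stat2 was higher in endothelium (1.05 ± 0.17 and 1.25 ± 0.17) and lower in microglia (-0.84 ± 0.17 and -0.71 ± 0.21). Its partner Irf9, with which it forms the factor that binds the ISRE, was also higher in endothelium (2.03 ± 0.22 and 2.12 ± 0.26), as was Irf1 (2.88 ± 0.26 and 2.66 ± 0.27). Stat3, which also serves cytokines such as interleukin 6, and Irf2, a repressor of interferon genes, were higher in both classes by 0.31 to 0.82. With no filter Irf2 in Hip endothelium differed by 0.22 (adjusted p = 0.096), and the call was lost.

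Among the receptor chains Ifngr1, the binding chain for interferon gamma, lay at 58.9 to 238 CPM (median 121) in microglia, 16.0 to 50.6 CPM (median 27.5) in endothelium, 6.89 to 11.5 CPM (median 9.84) in other glia and 3.06 to 4.59 CPM (median 3.44) in neurons of Hip. In PFC it lay at 57.2 to 247 CPM (median 151) in microglia and 15.7 to 55.4 CPM (median 30.3) in endothelium. Every microglial value was above every value of the other classes. The log2 difference for microglia was 3.45 ± 0.14 (SE, adjusted p = 7.21e-24) in Hip and 3.55 ± 0.16 (SE, adjusted p = 9.4e-22) in PFC. Its signaling partner Ifngr2 was likewise higher in microglia, by 1.93 ± 0.10 and 2.59 ± 0.18, and was lower in PFC endothelium (-0.85 ± 0.28).

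The type I chain Ifnar1 was higher in endothelium in both regions (1.97 ± 0.15 and 2.34 ± 0.14) and did not pass the test in microglia (0.18 ± 0.15 and -0.21 ± 0.18). Ifnar2 was higher in both endothelium (1.68 ± 0.16 and 2.55 ± 0.23) and microglia (1.53 ± 0.13 and 1.19 ± 0.24). A gene model on the same strand covers 42.3% of Ifnar2, so its counts are less certain. All 4 chains were lower in neurons and in other glia in both regions.

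Against the mean of the other classes, neurons and other glia were thus each lower for most members. The differences of a member cancel out over all classes, so the counts below are not separate from the high levels in endothelium and microglia. The counts also do not rank other glia against neurons. In Hip, Trim25 lay higher in other glia than in neurons, and Adar lay higher in neurons than in other glia. In neurons 25 of 29 members were lower in Hip and 23 of 25 in PFC, where 36.4% and 31.2% of all genes tested were lower. In other glia 21 of 29 and 17 of 25 were lower, against 30.2% and 24.5%. With no filter 27 and 25 of 33 members were lower in neurons (19.9% and 15.6% of all genes) and 19 and 17 in other glia (10.6% and 9.82%). With the filter 0 members were higher in other glia in both regions, and with no filter 1 was, Irf3 (0.40 and 0.45 on the log2 scale).

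**Figure D2:**
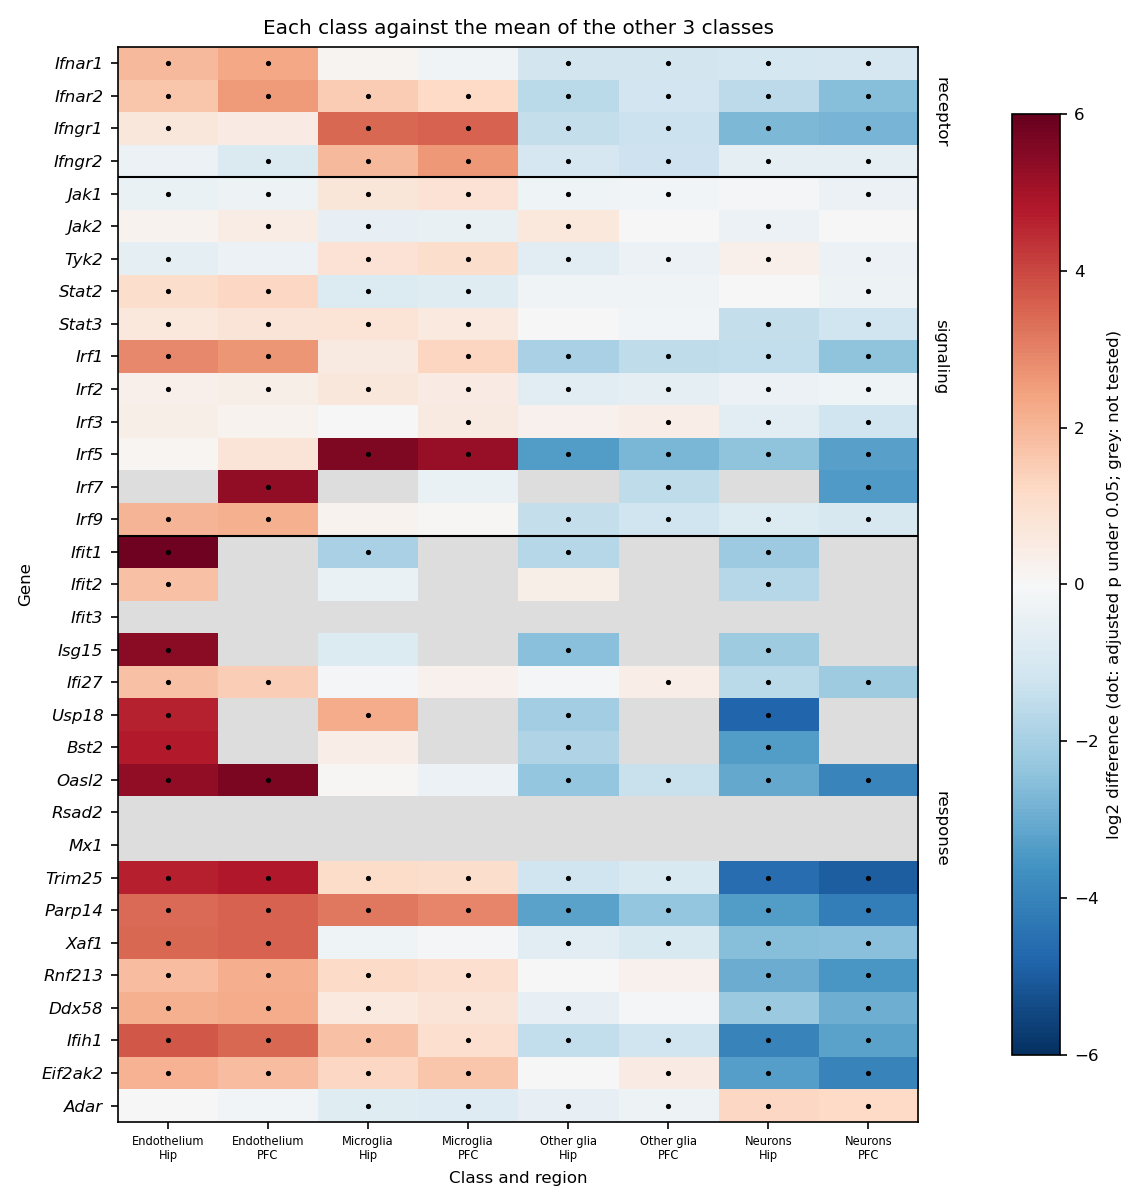
Log2 difference of each class from the mean of the other 3 classes (color, from -6 to 6) for the 33 members in rows, grouped by tier, with class and region in columns. A dot marks an adjusted p under 0.05 and grey a member that was not tested. Most response rows are positive in endothelium (Oasl2 at 5.67 in PFC) and negative in neurons (Trim25 at -4.93 in PFC), and Irf5 and Ifngr1 stand out in microglia.

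Markers of other cells were present in these sums. In Hip endothelium mural cell markers summed to 12.2 to 41.1 per 10000 UMIs and border macrophage markers to 0 to 1.16. When nuclei with any UMI of a border macrophage, mural, fibroblast, lymphocyte, neutrophil or monocyte marker were left out, 176 of 604 endothelial nuclei stayed in Hip and 534 of 971 in PFC. The members higher in endothelium then numbered 11 of 24 tested in Hip and 15 of 23 in PFC, where 7.42% and 12.6% of all genes tested were higher. Trim25, Ifih1 and Parp14 were still higher in Hip, by 3.17, 3.14 and 2.93 on the log2 scale, and Oasl2, Ifit1 and Isg15 had too few UMIs left for the filter there.

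Other genes of the pathway, 107 listed and 102 found in the files, were taken from a list chosen with earlier results of these data known. Of 72 further response genes found, 39 of 45 tested were higher in endothelium in Hip and 29 of 36 in PFC, and 28 and 26 were higher in microglia, against 22.9% and 22.7% of all genes tested in endothelium and 25.6% and 17.9% in microglia. Some of these genes may have passed the filter only through the class in which they are high. With no filter 54 of 90 other pathway genes with a UMI were higher in endothelium in Hip and 54 of 93 in PFC, and 43 and 44 in microglia, against 11.8%, 11.2%, 12.0% and 9.73% of all genes. Of the listed sensors and adaptors, 6 of 6 tested in Hip and 5 of 5 in PFC were higher in microglia. No interferon gene itself passed the filter. Of 11 listed interferons and type III receptor chains only Il10rb, which also serves interleukin 10, could be tested, and it was higher in endothelium by 3.86 in Hip and 3.72 in PFC (log2).

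The comparison of GF with SPF mice addresses the absence of the microbiota, and that of GF with CGF mice its return. Both use the same GF libraries, so their results are not independent. In every class many genes differed between GF and SPF mice, and the counts of members stand against that background. In microglia 4 of 16 members tested in Hip passed (26.9% of all genes tested) and 1 of 8 in PFC (38.6%). In endothelium 1 of 20 passed in Hip (14.7%) and 5 of 14 in PFC (33.5%). In other glia 5 of 24 and 6 of 19 passed (39.4% and 51.2%), and in neurons 9 of 30 and 13 of 27 (47.2% and 63.3%). The share of members lay slightly above that of all genes in PFC endothelium and below it in every other class and region. Against CGF mice 3 of 16 members passed in Hip microglia (25.4%) and 1 of 8 in PFC (38.9%). In endothelium 0 of 20 passed in Hip (10.2%, of which 6.69% higher and 3.47% lower) and 5 of 14 in PFC (30.9%). Of the 20 in Hip endothelium 3 had an unadjusted p under 0.05 in edgeR, as had 1385 of all 5213 genes tested. In other glia 8 of 24 and 7 of 19 passed (40.7% and 53.1%), and in neurons 11 of 30 and 14 of 27 (47.1% and 62.2%).

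In microglia the receptor Ifngr1 was higher in GF mice in both regions. In Hip it measured 238, 217 and 167 CPM in GF mice, 121, 115 and 74.1 CPM in SPF mice and 58.9, 116 and 146 CPM in CGF mice. The GF values lay above all others, and the SPF and CGF values overlapped. The log2 difference was 0.98 ± 0.24 (SE, adjusted p = 0.00278) from SPF and 0.97 ± 0.26 (SE, adjusted p = 0.00576) from CGF mice. In PFC it measured 200.2, 247 and 202 CPM in GF mice, 96.5, 161 and 142 CPM in SPF mice and 57.2, 151 and 151 CPM in CGF mice, again without overlap. The PFC difference was 0.72 ± 0.28 (SE, adjusted p = 0.0369) from SPF and 1.09 ± 0.29 (SE, adjusted p = 0.00279) from CGF mice, and the former lost its call without GF mouse 6 or without SPF mouse 30, 31 or 32 (adjusted p up to 0.15). It also lost its call with DESeq2 (adjusted p = 0.084), the stricter gate (0.15), nuclei thinned to equal depth (0.083), the length and GC correction (0.14) and only the 6 GF and SPF libraries (0.060). Border macrophage markers in PFC microglia were also higher in GF (2.21 to 4.33 per 10000 UMIs) than in SPF (0 to 1.72) and CGF mice (0.141 to 1.16). Without nuclei that held such markers the PFC difference was 0.64 (adjusted p = 0.068). Blood markers in microglia were higher in GF than in SPF mice in Hip (1.72 to 3.49 against 0.284 to 0.886 per 10000 UMIs) and in PFC (1.96 to 3.92 against 0 to 0.418). The microglial markers themselves were also higher in GF mice (97.9 to 100.2 against 78.2 to 92.4 in Hip and 98.3 to 116 against 74.1 to 86.5 in PFC), and the part of both lists in the difference was not tested. In Hip Ifngr1 kept its call in all 16 alternatives.

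Jak2, the kinase of the interferon gamma receptor, measured 81.3, 84.5 and 83.3 CPM in GF mice, 34.5, 53.5 and 54.8 CPM in SPF mice and 62.4, 48.5 and 85.3 CPM in CGF mice in Hip microglia. GF values were close together and above those of SPF mice, and 1 CGF value lay above them. The difference from CGF mice did not pass, and that from SPF mice was 0.83 ± 0.27 (SE, adjusted p = 0.0233). The latter missed the threshold without GF mouse 6 or 7 or SPF mouse 30 (adjusted p = 0.077, 0.072 and 0.18) and with DESeq2 (0.18).

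Irf3, the factor that first induces interferon beta, measured 59.4, 42.2 and 35.7 CPM in GF mice, 19.4, 25.5 and 16.1 CPM in SPF mice and 6.93, 33.9 and 14.2 CPM in CGF mice, from 45, 24 and 13 UMIs per group. The groups GF and SPF did not overlap. The difference from SPF mice was 1.14 ± 0.41 (SE, adjusted p = 0.0391). It missed the threshold without any 1 of the 6 GF and SPF mice (adjusted p 0.052 to 0.18) or with DESeq2 (0.22), and it was 0.47 after a correction of every library for the length and GC content of genes. Bcl2l12 on the other strand covers 20.5% of Irf3.

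Adar fell in the same nuclei, where it measured 34.4, 33.2 and 41.6 CPM in GF mice, 58.2, 53.5 and 109.5 CPM in SPF mice and 76.2, 53.3 and 46.2 CPM in CGF mice. The GF values lay below all others. The difference from CGF mice did not pass, at -0.68 ± 0.36 (SE, adjusted p = 0.17). The difference from SPF mice was -0.96 ± 0.32 (SE, adjusted p = 0.0288), and it missed the threshold without GF mouse 5 or 6 or SPF mouse 32 (adjusted p = 0.075, 0.065 and 0.14), with DESeq2 (0.13), with the stricter gate (0.35) and without nuclei that held markers of other cells (0.068). Neuronal markers, of the class in which Adar was highest, summed in microglia to 38.2 to 42.7 per 10000 UMIs for GF mice against 44.0 to 56.7 for SPF mice and 41.5 to 49.6 for CGF mice. Oligodendrocyte markers there summed to 3.5 to 5.13 for GF, 7.49 to 11.3 for SPF and 7.04 to 9.50 for CGF mice, and markers of their precursors to 0.344 to 0.388, 0.633 to 0.875 and 0.482 to 0.771. The part of these lists in the microglial differences of Jak2, Irf3 and Adar was not tested.

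Other microglial members did not pass between GF and SPF mice. Irf5 differed by 0.41 ± 0.24 (SE, adjusted p = 0.232) in Hip and -0.11 ± 0.37 (SE, adjusted p = 0.837) in PFC, Ifnar1 by 0.58 ± 0.35 (SE, adjusted p = 0.243) in Hip, and Eif2ak2 by -0.79 ± 0.47 (SE, adjusted p = 0.231). Ifngr2 missed the threshold against SPF mice in Hip, at 0.34 ± 0.19 (SE, adjusted p = 0.208), and passed against CGF mice, at 0.70 ± 0.22 (SE, adjusted p = 0.0178).

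**Figure D3:**
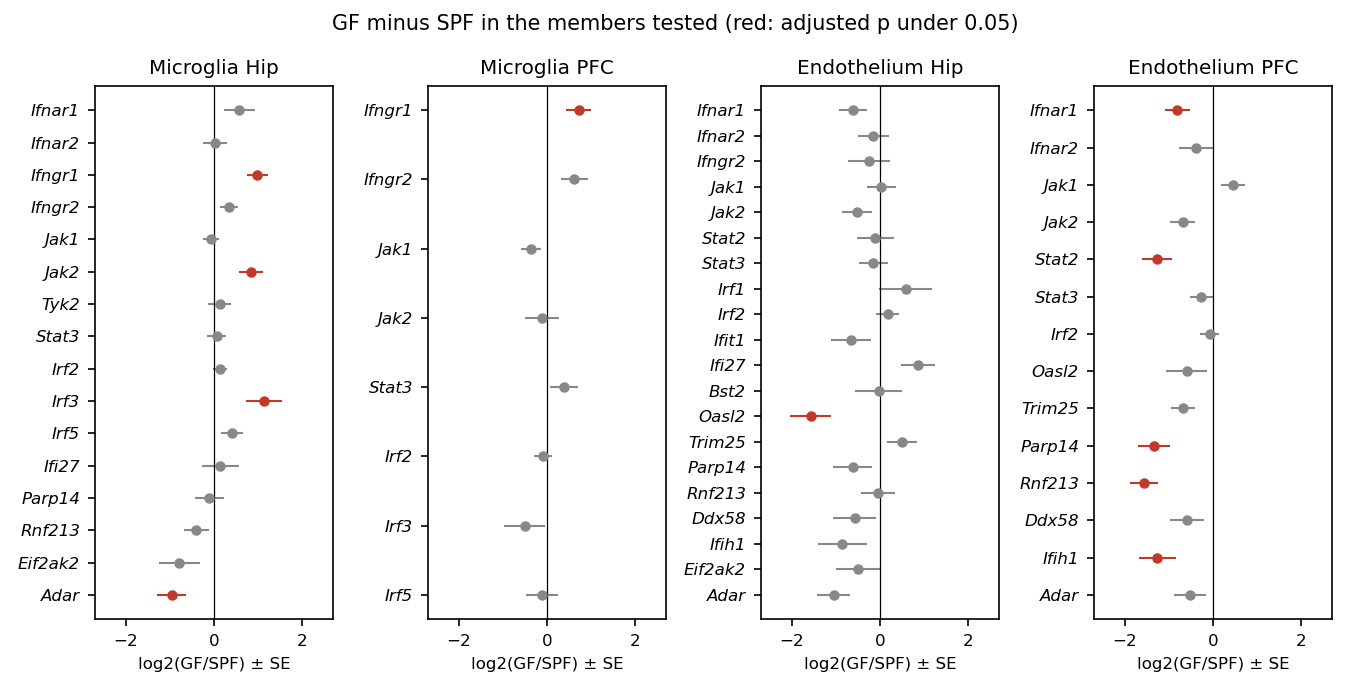
Log2 difference of GF from SPF mice with its SE (bars) for each member tested in microglia and endothelium of both regions, with red for an adjusted p under 0.05. Ifngr1 is red and right of 0 in both microglial panels, and the red members of PFC endothelium (Ifnar1, Stat2, Parp14, Rnf213 and Ifih1) are left of 0.

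In PFC endothelium the members that passed were lower in GF than in SPF mice. The count was 5 of 14 lower and 0 higher, where 14.1% of all genes tested were lower and 19.4% higher, and the median log2 difference of the tested members was -0.63 against -0.06 over all genes. Rnf213 measured 75.2, 30.3 and 42.5 CPM in GF mice, 165, 163 and 141 CPM in SPF mice and 125, 76.6 and 109 CPM in CGF mice. Its GF values lay below all others. The difference was -1.56 ± 0.33 (SE, adjusted p = 0.000608) from SPF mice and -0.99 ± 0.35 (SE, adjusted p = 0.033) from CGF mice.

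Parp14 measured 51.4, 18.2 and 39.6 CPM in GF mice, 110.1, 85.4 and 105 CPM in SPF mice and 91.9, 91.9 and 128 CPM in CGF mice, with GF below all others. Its difference was -1.33 ± 0.37 (SE, adjusted p = 0.00665) from SPF mice and -1.38 ± 0.37 (SE, adjusted p = 0.00531) from CGF mice. Stat2, which carries the type I signal to the nucleus, measured 43.5, 42.4 and 56.6 CPM in GF mice, 110.1, 171 and 95.5 CPM in SPF mice and 144, 99.6 and 109 CPM in CGF mice, and GF values were again lowest. The difference was -1.27 ± 0.33 (SE, adjusted p = 0.00477) and -1.22 ± 0.34 (SE, adjusted p = 0.00722).

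Ifnar1 measured 94.9, 121 and 87.8 CPM in GF mice, 126, 225 and 182 CPM in SPF mice and 184, 169 and 295 CPM in CGF mice in the same sums. The GF values lay below all others, with the highest GF value close to the lowest SPF value. The difference was -0.80 ± 0.28 (SE, adjusted p = 0.0306) and -1.09 ± 0.28 (SE, adjusted p = 0.0037), and the former missed the threshold without GF mouse 5 or 7 or SPF mouse 31 or 32 (adjusted p 0.082 to 0.15), with DESeq2 (0.17) and with thinned nuclei (0.066). Ifih1 measured 55.4, 30.3 and 25.5 CPM in GF mice, 141, 54.3 and 81.9 CPM in SPF mice and 65.6, 61.3 and 51.4 CPM in CGF mice, where GF mouse 5 overlapped both other groups. The difference from CGF mice did not pass. The difference from SPF mice was -1.26 ± 0.41 (SE, adjusted p = 0.0202), which missed the threshold without GF mouse 7 or SPF mouse 30 (adjusted p = 0.12 and 0.15) or with DESeq2 (0.13). Parp14 missed it with DESeq2 (0.059) and Stat2 with the stricter gate (0.079). Trim25 missed it against SPF mice, at -0.68 ± 0.27 (SE, adjusted p = 0.0578), and passed against CGF mice, at -1.20 ± 0.26 (SE, adjusted p = 0.000896).

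Other measures moved with the groups in PFC endothelium. Neuronal markers summed to 39.2 to 48.8 per 10000 UMIs in GF mice against 22.4 to 27.2 in SPF mice and 24.7 to 29.7 in CGF mice. Mural markers summed to 15.7 to 17.3, 6.18 to 9.96 and 4.79 to 8.14 in the same order, and blood markers to 32.9 to 49.5, 3.01 to 13.6 and 19.6 to 37.2. Depth and the mitochondrial share of UMIs differed as given above. With the nuclei that held markers of mural or immune cells or fibroblasts left out, 0 members passed between GF and SPF mice. This cut GF sums more, to 40, 29 and 48 of 101, 87 and 154 nuclei. In SPF mice 66, 46 and 94 of 93, 80 and 151 stayed. A nucleus with more UMIs is also more likely to hold such a marker. Of the 5 only Ifnar1 then had enough UMIs to be tested, at -1.53 (adjusted p = 0.051). The part of these measures in the differences was not tested further.

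In Hip endothelium the only member that passed was Oasl2, which was lower in GF mice (1 of 20 lower and 0 higher, where 5.16% of all genes tested were lower and 9.53% higher). It measured 41.2, 33 and 18.9 CPM in GF mice, 66.3, 118 and 71.9 CPM in SPF mice and 80.4, 21.6 and 56.1 CPM in CGF mice, from 13, 56 and 24 UMIs. The GF values lay below the SPF values and overlapped the CGF values. The difference was -1.57 ± 0.47 (SE, adjusted p = 0.0273) from SPF mice, and it missed the threshold without GF mouse 6 or 7 or SPF mouse 31 or 32 (adjusted p 0.058 to 0.22). With DESeq2, the stricter gate, thinned nuclei or without nuclei that held markers of other cells 0 members were called in Hip endothelium. In PFC the same gene differed by -0.59 ± 0.47 (SE, adjusted p = 0.343). Blood markers in Hip endothelium ranged from 4.79 to 91.1 per 10000 UMIs in GF mice and from 0.441 to 6.08 in SPF mice, and mural markers from 12.2 to 15.3 and from 17.7 to 41.1. The part of both was not tested.

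In other glia Irf3 and Ifi27 were higher and Ifnar1, Rnf213 and Adar lower in GF mice in Hip. Irf3 measured 42.5, 45.8 and 45.5 CPM in GF mice, 18.6, 18.2 and 19.7 CPM in SPF mice and 21.5, 19.8 and 17.7 CPM in CGF mice, a separation without overlap, with a difference from SPF mice of 1.24 ± 0.12 (SE, adjusted p = 2.96e-05). In PFC Stat3 was higher and Stat2, Trim25, Rnf213, Eif2ak2 and Adar were lower. Adar was thus lower in both regions, with a difference of -0.56 ± 0.10 (SE, adjusted p = 0.000977) in Hip and -0.72 ± 0.15 (SE, adjusted p = 0.000276) in PFC. It measured 45.4, 46.3 and 42.7 CPM in GF mice, 84.7, 68.4 and 70.1 CPM in SPF mice and 77.5, 75.8 and 86.3 CPM in CGF mice in PFC, where the GF values lay below all others. In Hip Irf3 and Adar kept their calls in all 18 alternatives, thinning included, and Irf3 differed by 0.69 after the length and GC correction. The other calls in other glia, Adar in PFC included, were lost under at least 1 alternative. Blood markers moved with the groups here as well, at 1.08 to 2.42 per 10000 UMIs in GF against 0.224 to 0.409 in SPF mice in Hip other glia and 0.407 to 0.753 against 0.0675 to 0.145 in Hip neurons, and their part was not tested.

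Neurons, with the most UMIs, had the most calls. In Hip Ifngr2, Irf3 and Ifi27 were higher in GF mice and Ifnar1, Ifnar2, Stat3, Ifih1, Eif2ak2 and Adar lower. In PFC Ifnar2, Ifngr2, Jak2, Irf5, Ifit1, Mx1 and Rnf213 were higher and Ifnar1, Jak1, Stat2, Ifit2, Ifih1 and Eif2ak2 lower. In both regions Ifngr2 was higher and Ifnar1, Ifih1 and Eif2ak2 were lower. In all 15 alternatives, thinning included, the calls of Ifngr2, Irf3, Ifnar2, Eif2ak2 and Adar were kept in Hip and those of Ifnar1, Ifnar2, Jak2, Stat2, Ifit1, Ifih1, Eif2ak2 and Mx1 in PFC. The other neuronal calls were lost under at least 1 alternative. Eif2ak2, the kinase that stops translation on double-stranded RNA, measured 0.919, 1.09 and 0.686 CPM in GF mice, 2.47, 2.30 and 2.06 CPM in SPF mice and 3.11, 2.60 and 2.28 CPM in CGF mice in Hip, with a difference from SPF mice of -1.34 ± 0.21 (SE, adjusted p = 0.000688). In PFC it differed by -0.92 ± 0.26 (SE, adjusted p = 0.00834) from SPF mice, and its GF and CGF values overlapped there.

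Mx1 gave the largest group difference of all members and is described because of it, after its values were seen. Neurons of PFC measured 8.80, 11.4 and 10.4 CPM in GF mice, 0.511, 0.610 and 0.299 CPM in SPF mice and 0.447, 0.513 and 0.233 CPM in CGF mice, and neurons of Hip 4.21, 3.41 and 5.04 CPM in GF mice, 3.00, 3.79 and 2.48 CPM in SPF mice and 5.25, 6.97 and 2.86 CPM in CGF mice. The 6 PFC libraries of SPF and CGF mice lay below all other libraries of either region. The PFC difference was 4.42 ± 0.27 (SE, adjusted p = 7.8e-08) from SPF and 4.66 ± 0.27 (SE, adjusted p = 6.69e-08) from CGF mice, and the Hip difference from SPF mice was 0.45 ± 0.30 (SE, adjusted p = 0.245). The PFC sums of SPF and CGF mice held 32 and 28 UMIs and those of GF mice 1715. These 6 libraries are also the shallow ones. With nuclei thinned to equal depth the PFC difference kept its call. Thinning leaves the expected CPM of a gene unchanged, so it cannot test other differences between these libraries.

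The difference between regions of the GF minus SPF change was tested directly. It passed in 16 of 32 members in neurons (52.6% of all genes tested), 3 of 24 in other glia (31.8%), 2 of 19 in microglia (8.37%) and 0 of 20 in endothelium (4.01%). When 1 mouse was left out the count was 8 to 17 in neurons (8 without SPF mouse 30 or 31, 9 without GF mouse 6 and 10 without GF mouse 5) and 0 to 1 in microglia, whichever mouse was left out. In endothelium 3 of the 20 had an unadjusted p under 0.05 in edgeR, as had 927 of all 5236 genes tested. With the mouse as a block 1 endothelial member passed. In neurons Ifnar2 turned with region. It measured 8.71, 8.71 and 8.32 CPM in GF mice, 12.4, 13.3 and 11.6 CPM in SPF mice and 12.8, 11.8 and 10.3 CPM in CGF mice in Hip and 8.94, 8.11 and 8.56 CPM in GF mice, 4.24, 3.42 and 3.89 CPM in SPF mice and 4.59, 4.11 and 3.03 CPM in CGF mice in PFC, so GF was lowest in Hip and highest in PFC, with GF levels nearly equal in both regions. The difference between regions was 1.74 ± 0.19 (SE, adjusted p = 7.52e-07) on the log2 scale. For Irf3, higher in GF neurons in Hip, it was -0.75 ± 0.23 (SE, adjusted p = 0.0118).

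**Figure D4:**
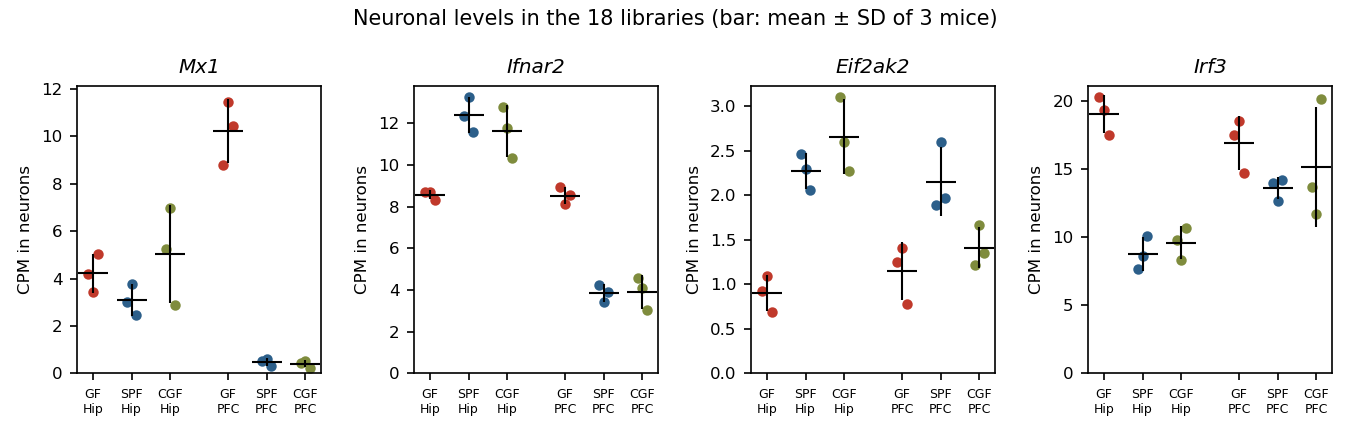
Neuronal level (CPM, linear axis from 0) of Mx1, Ifnar2, Eif2ak2 and Irf3 in each library by group and region, with lines for the mean and SD of 3 mice. Mx1 lies under 1 CPM only in the PFC libraries of SPF and CGF mice, and Ifnar2 of GF mice lies below the other groups in Hip and above them in PFC.

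Between CGF and SPF mice 0 members passed in any class or region in edgeR. Of all genes tested 0.0676% passed in microglia, 0.0192% in endothelium, 0.166% in other glia and 0.659% in neurons of Hip, and 0.0279%, 0.0233%, 0.268% and 0.381% in PFC. At an unadjusted p under 0.05 in edgeR, 2 of 16 members passed in Hip microglia and 1 of 20 in Hip endothelium. In Hip other glia 4 of 24 did and in Hip neurons 7 of 30. The counts over all genes, in the same order, were 502 of 7401, 285 of 5213, 1627 of 14486 and 2864 of 19130. In PFC 3 of 27 members passed in neurons and 0 in the other classes. Over all genes there, again in that order, the counts were 239 of 3587, 336 of 4287, 1180 of 11962 and 2417 of 17835. DESeq2 called 1 in Hip neurons, and edgeR without a filter called 1 in Hip endothelium.

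The other genes of the pathway were compared between GF and SPF mice in the same way. In microglia 2 were higher and 2 lower of 32 tested in Hip (26.9% of all genes passed), and 3 higher and 2 lower of 13 in PFC (38.6%). The largest changes were those of Slfn8 (-2.49) and the phosphatase Ptpn6 (-2.05) in PFC and of the nuclear body protein Sp100 (-1.52) in Hip, all on the log2 scale. In endothelium 0 were higher and 3 lower of 30 tested in Hip (14.7%), and 3 higher and 7 lower of 25 in PFC (33.5%). The helicase-like gene Ddx60 was lower in both regions (-1.83 in Hip and -2.92 in PFC), and in PFC the cytidine deaminase Apobec3 (-1.72) and the restriction factor Trim30a (-1.66) followed.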

How the data were processed

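Hip and PFC of 3 GF, 3 SPF and 3 CGF mice gave 18 single-nucleus libraries (10x Genomics 3' v3.1 chemistry). The authors trimmed reads with fastp 0.18.0 and deposited raw counts of UMIs per gene and nucleus from Cell Ranger 3.1.0 on mm10 with Ensembl 92, without normalization, and the submitters' processing notes also name CASAVA 1.8. Whether intronic or antisense reads were counted is not given in the sources used here. The group came from the strain label, the region from the source name and the mouse number from the title.

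The filter on nuclei asked for 200 genes and at most 10% of UMIs from mitochondrial genes, which removed some (828 in Hip, 1096 in PFC). A nucleus joined a class where at least 2 of the class's markers were present, their sum per 10000 UMIs reached 0.3 of a typical level, was at least 2 times every other non-neuronal score and exceeded the neuronal score. Neurons needed 2 times every other score. The typical levels were set after marker levels were seen, and 2 to 1011 nuclei per class and region lay within 1.5 times the threshold. No doublet caller was run. Nuclei in which no class reached its level and ratios stayed out (3436 and 2849 ungated). Nuclei with weaker markers of other classes could stay in.

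Sums per library and class were tested with edgeR 4.0.16 (filterByExpr, TMM, glmQLFit, glmQLFTest) over all genes, and calls are adjusted p-values (Benjamini-Hochberg) under 0.05. The 3 groups of a region shared a fit, classes were compared with the library as a block, and regions through an interaction. The SE is the log2 difference divided by the square root of F. Both regions of a mouse carry its number, and the deviations of its 2 sums from their group means correlated by -0.0382 to 0.326. Tests were tried on simulated counts. The members and lists were chosen with earlier results of these data known.

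All 33 members are accounted for. Values per library are given for those called between GF and SPF mice in microglia or endothelium and for the 3 with the largest difference per class called in both regions, and at most 3 other pathway genes are named for microglia and for endothelium. Other genes were named after their values were seen. Promoters were limited to the first 4 by adjusted p. Gene models came from GENCODE vM21 (GRCm38), which matched 30766 of 30905 genes (99.6%) and all 33 members. Alternatives were DESeq2 1.42.0, no filter, a stricter gate, thinning, a length and GC correction, separate glial types, 2 groups only, the mouse as a block and each mouse left out. Leaving out nuclei with markers of other cells and using the libraries of 1 group were added after seeing the data. Tools were Python 3.11.15, numpy 2.4.6, scipy 1.17.1, pandas 2.3.3, R 4.3.3 and limma 3.58.1.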

Additional observations from a re-analysis of the deposited data

Results flagged for a closer look

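In 21 combinations of member and class the GF minus SPF change in PFC differed from that in Hip in the test of the difference itself. All values here are that difference on the log2 scale. In microglia it was -1.65 for Ifnar1 and -1.95 for Stat2. Within a region Ifnar1 passed the filter on low counts only in Hip microglia and Stat2 in neither, and both calls were lost with no filter, with the stricter gate and with thinned nuclei. In other glia it was 0.64 for Stat3, -1.01 for Irf3 and -1.19 for Ifi27.

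In neurons the largest was that of Mx1 at 4.03, and the next were those of Ifnar2 at 1.74, Irf7 at -1.59, Ifit1 at 1.58 and Irf5 at 1.23. Irf7 passed the filter in neither region alone, only in the fit over both. Parp14 (0.97), Rnf213 (0.82), Ddx58 (0.56), Jak2 (0.55), Adar (0.29) and Stat3 (0.25) also moved up in PFC relative to Hip. Ifi27 (-0.94), Irf3 (-0.75), Ifngr1 (-0.55), Stat2 (-0.37) and Ifnar1 (-0.28) moved down. With the mouse as a replicate block Stat3 lost its call (adjusted p = 0.0715). The calls of Ifnar2, Jak2, Stat2, Ifit1, Mx1 and Rnf213 were kept under every alternative that gave a value, and those of the other 10 neuronal members were lost under at least 1. Of all 21 calls, 11 were lost without SPF mouse 30, 11 without SPF mouse 31, 10 without GF mouse 6, 8 without GF mouse 5 and 7 with no filter. Of all genes tested, 52.6% differed between regions in this way in neurons, 31.8% in other glia and 8.37% in microglia. PFC libraries of GF mice were deeper than those of SPF mice, and in PFC depth and group cannot be told apart.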

How the results depend on the processing

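Of the members' class results under all alternatives 2709 kept direction and call, 195 lost the call and 14 turned, and of the group results 1204, 243 and 3. Of the region differences 212 kept the call and 78 lost it. Alternatives in which a called member could no longer be tested are not in these counts, so they are not counted as lost. Endothelial and microglial sums were small, most induced genes were too low there, and in PFC depth and the GF group cannot be told apart. The causes of the changes below were not tested. For most alternatives only the members called were counted, so the counts below mostly stand without the share of all genes.

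Members called between GF and SPF mice numbered 1 in Hip microglia with DESeq2 (2 with the stricter gate, 2 without nuclei holding markers of other cells, 4 as reported). In PFC microglia there were 3 with DESeq2, with no filter or with only 2 groups, and 0 with the stricter gate, without such nuclei, with thinning or with the length and GC correction. In Hip endothelium there were 0 with DESeq2, the stricter gate, thinning or without such nuclei, and in PFC endothelium 3 with DESeq2 and 0 without such nuclei. In other glia the count in Hip was 3 with the length and GC correction, in astrocytes alone and in precursors alone, and in PFC 3 with DESeq2, 0 in oligodendrocytes alone and 2 in precursors alone. CGF minus SPF gave 1 call in Hip with DESeq2 and 1 with no filter.

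Members higher in endothelium in Hip fell from 22 of 29 to 11 of 24 tested without nuclei holding markers of other cells. The share of all genes tested that were higher fell from 22.9% to 7.42%. In PFC microglia 10 were higher in SPF libraries alone and 10 in CGF libraries alone. In neurons 1 was higher in Hip without such nuclei, and in PFC 2 with no filter and 3 in GF libraries alone. In other glia of Hip 2 were higher with no filter, the stricter gate, thinning, without such nuclei and in GF libraries alone, and in PFC 5 with no filter, 1 in GF libraries and 0 in SPF libraries. The difference between regions was called in 0 microglial members with no filter, the stricter gate or thinning. With the mouse as a replicate block it was called in 1 endothelial member instead of 0, 3 microglial instead of 2 and 15 neuronal instead of 16, and Stat3 in neurons was the only call lost.

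With each mouse left out in turn, GF minus SPF calls ranged from 1 to 5 in Hip microglia (1 without GF mouse 6), 0 to 2 in PFC microglia (0 without SPF mouse 31), 0 to 2 in Hip endothelium, 4 to 7 in PFC endothelium, 3 to 6 in Hip other glia, 3 to 6 in PFC other glia, 6 to 9 in Hip neurons and 9 to 15 in PFC neurons. GF minus CGF calls summed over classes ranged from 16 to 25 in Hip and 17 to 29 in PFC (17 without CGF mouse 17), and CGF minus SPF calls were 0 throughout. Members higher in a class ranged from 20 to 23 and 16 to 19 in endothelium, 14 to 15 and 14 to 16 in microglia, 2 to 2 and 1 to 1 in neurons and 1 to 2 and 1 to 3 in other glia, Hip before PFC. Region differences ranged from 0 to 1 in microglia, 0 to 0 in endothelium, 2 to 3 in other glia and 8 to 17 in neurons (8 without SPF mouse 30 or 31).

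The values of single members that turned sign were as follows (log2). With the length and GC correction Irf2 was 0.12 (GF minus CGF, Hip neurons). In glial types taken alone Rnf213 was 0.0035 in oligodendrocytes (GF minus CGF) and 0.16 in precursors (GF minus SPF) of Hip. Between classes Irf5 in Hip neurons was 0.37 without nuclei holding markers of other cells. In GF libraries alone Ddx58 was -0.32 in microglia and 0.030 in other glia and Ifit1 0.22 in other glia of Hip, and in PFC Jak2 was -0.14 in endothelium, Irf7 0.45 in other glia and Stat2 0.22 in neurons. In CGF libraries alone the comparison of Irf2, endothelium minus the other classes, Hip, gave -0.026. There Tyk2 was 0.23 in endothelium, Ifit1 1.14 in other glia and Irf5 0.38 in neurons of Hip, and in PFC Oasl2 was 2.37 and Adar 0.014 in other glia. In SPF libraries alone Oasl2 was 0.54 in PFC other glia.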
